A study of Homo sapiens with 12 samples.

Results

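The 39 genes described here encode the proteins that load and start the DNA replication helicase, build the replication fork, supply nucleotides and histones, and govern the passage from G1 into S phase. They were chosen by name, with earlier results of these data known. Each stands here by a single probe set, that of the highest mean across 12 arrays among those paired with its symbol alone, and 39 of 39 were found among the 19775 genes measured. RNA came from INA-6, a human myeloma cell line that grows on interleukin-6, and was hybridised to Affymetrix HG-U133 Plus 2.0 arrays. The groups were cells given SB590885, a Raf kinase inhibitor, cells given PD325901, an inhibitor of the kinase MEK that acts below Raf, and cells given the solvent DMSO. The medium of all 3 groups, RPMI1640, held 10% serum and interleukin-6 at 2 ng/ml. A treatment used 300000 cells, and labelling used 100 ng of RNA. Each group had 4 arrays, called biological replicates in the design text, all from 1 cell line, and p-values measure the spread between these arrays. The sources used here state neither inhibitor concentrations nor treatment times.

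Before S phase, the origin recognition complex, CDC6 and CDT1 load the MCM helicase onto DNA, and its activation by CDC45 and the GINS complex opens the fork for primase, polymerases, the sliding clamp and its loader. Many of these genes are transcribed in late G1 by E2F factors once cyclin-dependent kinases have inactivated the retinoblastoma protein, and signalling through Raf, MEK and ERK is a route by which growth factors raise the cyclins that start this step. In a bulk culture, fewer cells in S phase and less RNA per cell cannot be told apart.

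The start regions of the genes show what most of them share. RefSeq windows of 250 bases before to 50 bases after the annotated start (GRCh38.p14) were matched for 35 of the 39 genes, and those of MCM4, MCM5, GINS4 and E2F8 were not used here. The letters TTTNNCGC, on either strand, the core of the E2F site, occurred in windows of 23 of 35 genes (65.7%), against 1648 of 15384 array genes with a window (10.7%) and 2246 of all 27305 genes with a window (8.23%). CCAAT, the letters bound by NF-Y, occurred in 65.7% of the 35 genes and 41.7% of array genes. TTTGAA, the core of the CHR element found in many mitosis genes, occurred in 2 of 35 (5.71%), against 15.6% of array genes and 21 of 28 mitosis genes (75.0%). A TTTNNCGC match may overlap another match on the opposite strand. Windows of 4 members, chosen because their arrays separate or pair clearly and their numbers of matches differ, are written along the gene's strand from 5′ to 3′ with every TTTNNCGC match in capitals. These are MCM6 at chr2:135876394-135876693 on the minus strand with 4 overlapping matches whose first bases lay between -152 and -86 from the start, POLE2 at chr14:49688165-49688464 on the minus strand with matches at -81 and -5, PCNA at chr20:5126573-5126872 on the minus strand with 1 match at -59, and RRM2 at chr2:10122489-10122788 on the plus strand with 0 matches.
MCM6: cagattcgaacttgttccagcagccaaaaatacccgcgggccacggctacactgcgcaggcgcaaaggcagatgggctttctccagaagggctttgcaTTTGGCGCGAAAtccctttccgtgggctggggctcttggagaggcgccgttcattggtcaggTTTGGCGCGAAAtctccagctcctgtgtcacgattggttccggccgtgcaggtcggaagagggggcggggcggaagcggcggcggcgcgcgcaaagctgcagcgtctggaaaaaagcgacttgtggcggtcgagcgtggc
POLE2: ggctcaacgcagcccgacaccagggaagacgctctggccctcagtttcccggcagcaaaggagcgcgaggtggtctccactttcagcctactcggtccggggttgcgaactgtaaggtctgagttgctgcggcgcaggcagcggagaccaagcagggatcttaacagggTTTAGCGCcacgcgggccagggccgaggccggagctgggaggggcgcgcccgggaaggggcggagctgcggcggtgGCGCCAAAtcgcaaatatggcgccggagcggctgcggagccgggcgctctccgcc
PCNA: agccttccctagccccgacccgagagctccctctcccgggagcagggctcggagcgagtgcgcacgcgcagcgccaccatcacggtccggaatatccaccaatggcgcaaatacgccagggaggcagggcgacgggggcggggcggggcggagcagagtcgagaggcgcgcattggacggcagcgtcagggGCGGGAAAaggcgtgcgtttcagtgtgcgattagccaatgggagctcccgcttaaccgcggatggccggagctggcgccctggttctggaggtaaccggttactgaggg
RRM2: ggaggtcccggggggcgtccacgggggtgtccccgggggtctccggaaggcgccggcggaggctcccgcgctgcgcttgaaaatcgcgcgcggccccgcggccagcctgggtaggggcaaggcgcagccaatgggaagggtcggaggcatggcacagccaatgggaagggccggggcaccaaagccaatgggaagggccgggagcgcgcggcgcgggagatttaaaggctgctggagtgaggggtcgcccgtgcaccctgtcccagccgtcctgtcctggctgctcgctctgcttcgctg

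MCM6, PCNA and POLE2 thus share the E2F letters, and RRM2 is among the 12 members of 35 without a match. Among members with a window, 16 of the 23 that passed the test between the inhibitors held a match, and 7 of the 12 that did not pass.

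**Figure D1:**
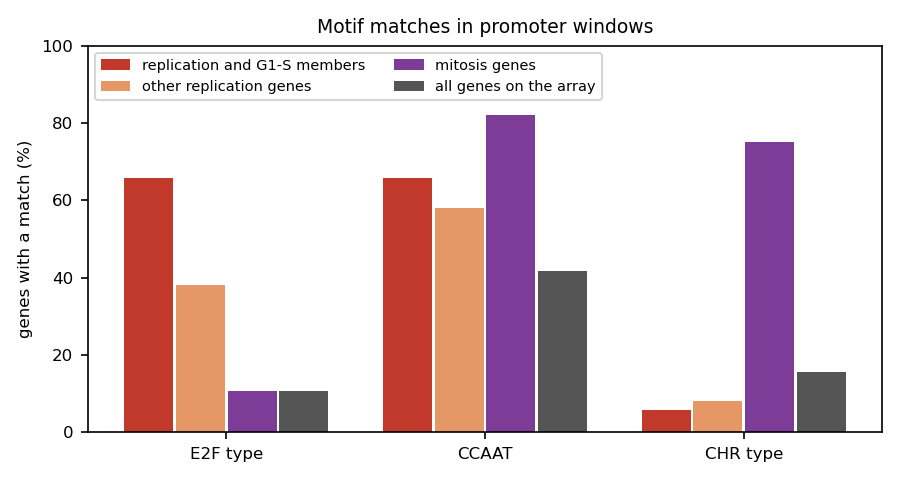
Share of genes (percent, vertical axis from 0) with at least 1 match to the E2F type letters TTTNNCGC, to CCAAT and to the CHR type letters TTTGAA in the RefSeq window, for the 35 replication and G1-S genes with a window, 50 other replication genes, 28 mitosis genes and 15384 array genes. The E2F type letters were in 65.7% of the replication and G1-S genes and in 10.7% of mitosis genes, and the CHR type letters in 5.71% and 75.0%.

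All values are log2 expression values that the authors made with RMA, and every member stood above the median of all probe sets (6.92) on all 12 arrays. Plasma cell markers, which fit a myeloma line, lay above that median on every array for 8 of 8 genes (8.72 to 13.6), while 0 of 4 T and NK cell markers and 0 of 4 monocyte markers did so. B cell markers were above it on all arrays for 2 of 3 genes, fibroblast markers for 1 of 4 (COL1A1) and erythroid markers for 1 of 2 (HBB), and their part in the results was not tested. Arrays 3 and 4 of each group carry an R in a second label, whose meaning is not given. The SD over all probe sets was 1.52, 1.53, 1.43 and 1.44 on the SB590885 arrays 1 to 4, 1.55, 1.54, 1.39 and 1.41 on the PD325901 arrays, and 1.54, 1.55, 1.45 and 1.45 on the DMSO arrays, so arrays with the R mark had the smaller SD, most of all with PD325901. The signal of GAPDH at its 3′ minus its 5′ end, a measure of RNA integrity, stood at 0.440 ± 0.035 with SB590885, 0.425 ± 0.057 with PD325901 and 0.371 ± 0.033 with DMSO (SD, n = 4 each), and its part in the results was not tested. Same-numbered arrays of different groups deviated together, so each result is given from limma both with group means alone and with the replicate number as a block, and a gene is said to pass at a Benjamini-Hochberg adjusted p under 0.05 over all genes. Where the fit is not named, rose and fell refer to the fit with the replicate block, and ± after a difference is its SE in that fit.

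Between cells given PD325901 and cells given DMSO, 38 of the 39 genes had a lower mean with PD325901, and the median log2 difference was -0.16; CDC6 alone had a higher one (0.08). Without the block, 0 members passed in limma, against 0.506% of all genes lower and 0.086% higher, and 11 were lower and 0 higher at an unadjusted p under 0.05. With the block, 16 members fell and 0 rose, against 6.18% of all genes lower and 1.96% higher. They were 4 licensing genes (MCM3, MCM4, MCM6 and CDT1), 4 helicase activation genes (MCM10, GINS1, GINS2 and GINS3), PCNA and RFC3 at the fork, UHRF1, CHAF1A and SLBP for chromatin and histones, UNG and EXO1 for repair, and the regulator E2F8. Their falls lay between -0.37 (UNG) and -0.20 (GINS1), and all 16 were lower in 4 of 4 same-numbered pairs. Over all members, 28 of 39 were lower with PD325901 in 4 of 4 pairs and 0 were higher, against 18.5% and 12.2% of all genes. The median difference was -0.06 in pair 1, -0.17 in pair 2, -0.25 in pair 3 and -0.21 in pair 4. Fitted in limma on arrays 1 and 2 alone with the block, 0 members passed (15 lower and 1 higher at an unadjusted p under 0.05, median -0.12), and on arrays 3 and 4 alone 18 fell and 0 rose (median -0.22). Of all 19775 genes, 318 fell and 266 rose on arrays 1 and 2 alone, and 1654 fell and 237 rose on arrays 3 and 4 alone. Leaving out 1 array took the count to 5 (PD325901 array 4), 7 (DMSO array 3), 8 (PD325901 array 3 or DMSO array 4) and 10 (DMSO array 2), and to between 12 and 22 for the other arrays.

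Highly expressed genes as a whole also lay lower with PD325901, and the members are highly expressed. Of the 3067 genes with a mean of 10 or more, as 30 of the 39 members have, 76.9% were lower with PD325901 than with DMSO, 15.4% fell, and their median difference was 0.03, -0.04, -0.17 and -0.14 in pairs 1 to 4. Of these 3067 genes, 1156 were lower and 262 higher in 4 of 4 pairs. Quantile normalisation, which gives every array the same range, left 7 members that fell with the block and 0 that rose (MCM3, MCM6, PCNA, RFC3, UHRF1, SLBP and UNG), against 3.51% of all genes and 6.88% of the highly expressed genes lower. All 7 were among the 16, the median over members was then -0.10, and 35 of 39 were still below DMSO.

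SB590885 had no common direction on these genes. Against DMSO, 19 members had a higher mean with SB590885 and 20 a lower one, with a median difference of -0.01. Without the block TK1 rose and CDC25A fell, against 1.59% of all genes higher and 1.69% lower. With the block RRM2 and TK1 rose, and MCM4, CDT1, MCM10, POLE2, E2F8 and CDC25A fell, 8 of 39, against 9.09% of all genes higher and 9.84% lower. At 4 of 4 numbers 4 members were higher and 11 lower with SB590885, against 17.1% and 16.9% of all genes. Of the 3067 genes with a mean of 10 or more, 500 were higher and 1216 lower at 4 of 4 numbers. Fitted on arrays 1 and 2 alone with the block, 2 members were higher and 4 lower, and on arrays 3 and 4 alone 2 were higher and 3 lower. Of all 19775 genes, 1772 were higher and 1897 lower on arrays 1 and 2 alone, and 711 higher and 1007 lower on arrays 3 and 4 alone. Of genes with a mean of 10 or more, 9.78% rose and 28% fell with SB590885 with the block. Quantile normalisation with the block gave 9 members higher and 3 lower, against 11% and 9.26% of all genes. RRM2 and TK1 were among the 9, with MCM5, MCM7, PCNA, PRIM1, ORC6, E2F2 and DTL, and MCM4, POLE2 and CDC25A were the 3, while CDT1 (limma adjusted p = 0.0731), MCM10 (limma adjusted p = 0.312) and E2F8 (limma adjusted p = 0.167) no longer passed. The median over members was then 0.04, and 27 of 39 lay above DMSO. Without the block at that scaling RRM2 was higher and MCM4 and POLE2 were lower, against 869 and 763 of all 19775 genes. TK1 and CDC25A did not pass there.

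Set against each other, the inhibitors left these genes at different levels: 33 of the 39 had a higher mean with SB590885 than with PD325901, by a median of 0.17. Without the block 1 member, TK1, was higher and 0 were lower in limma (12 higher and 1 lower at an unadjusted p under 0.05), against 1.97% and 0.855% of all genes. With the block 23 were higher with SB590885, against 12.4% of all genes, and POLE2 was lower, against 5.73%. The 23 comprised MCM2, MCM3, MCM5, MCM6, MCM7, ORC1 and ORC6, GINS2 and GINS3, PCNA, RFC3 and PRIM1, RRM2, TYMS and TK1, all 4 chromatin and histone supply genes, UNG, DTL and EXO1, and E2F2. The differences of the 23 ran from 0.16 to 0.54. Higher values with SB590885 in 4 of 4 same-numbered pairs were found for 23 of 39 members and lower ones for 2, against 18.2% and 11.8% of all genes, and the median difference was 0.07, 0.16, 0.17 and 0.28 in pairs 1 to 4. Fitted on arrays 1 and 2 alone with the block, 12 members were higher and 1 lower, and on arrays 3 and 4 alone 18 were higher and 0 lower. Of all 19775 genes, 1777 were higher and 1637 lower on arrays 1 and 2 alone, and 1960 higher and 484 lower on arrays 3 and 4 alone. Over all arrays, 14 passed without PD325901 array 4. Of genes with a mean of 10 or more, 53.2% were higher with SB590885, and with the block 18.1% passed as higher and 14.3% as lower. Their median difference was -0.10, -0.03, 0.08 and 0.10 in pairs 1 to 4, so they leaned higher with SB590885 in pairs 3 and 4 alone. Of these 3067 genes, 708 were higher and 489 lower in 4 of 4 pairs. Quantile normalisation with the block left 22 members higher, all of them among the 23, and POLE2 lower, against 10.4% and 8.73% of all genes. The 3 comparisons share arrays, so their values are set side by side and are not independent.

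**Figure D2:**
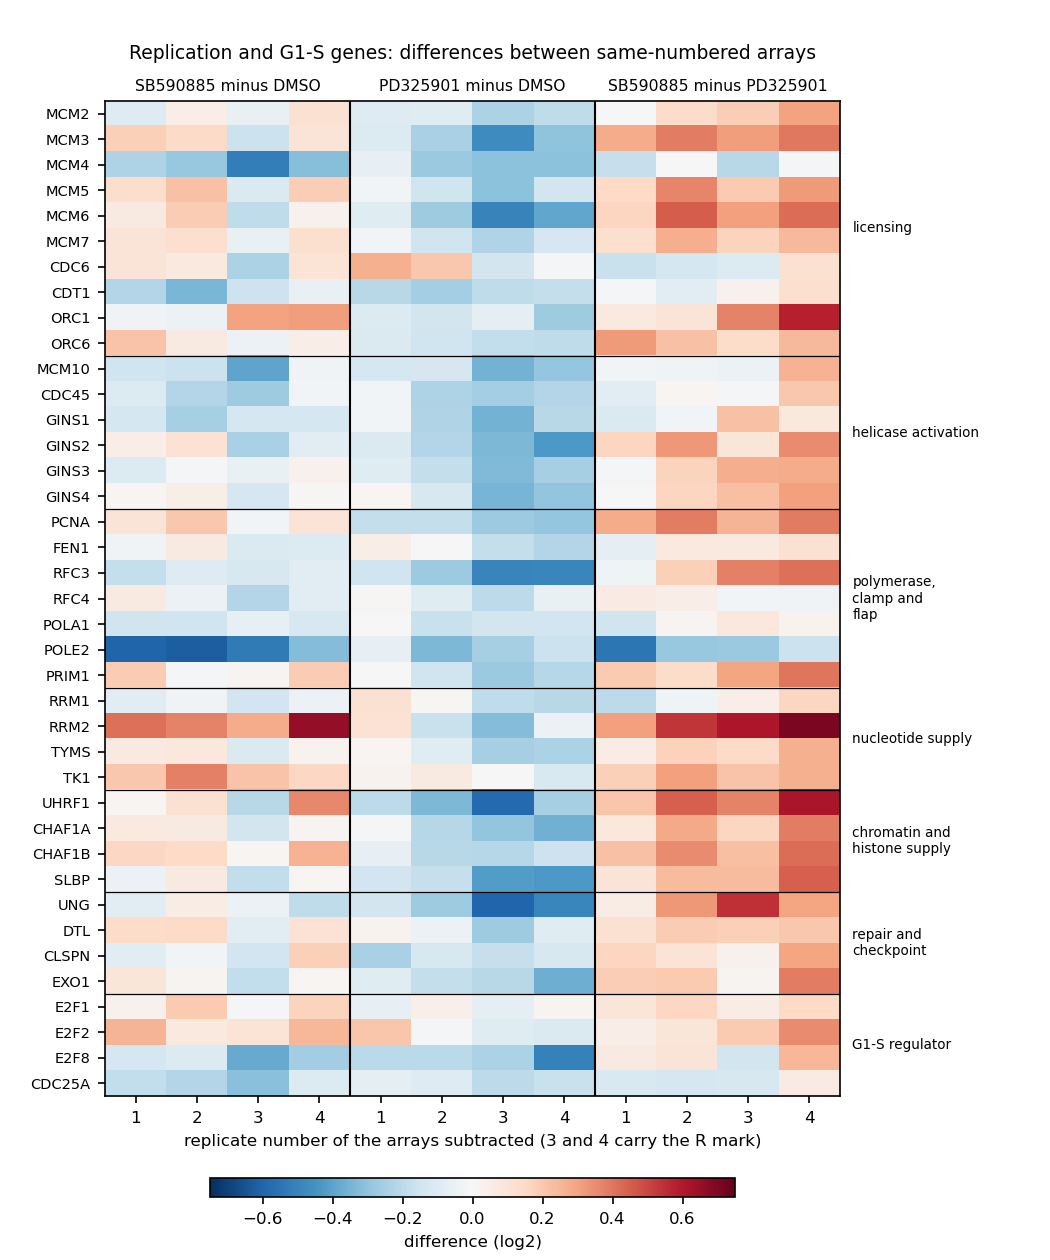
Difference on the log2 scale (colour, blue lower and red higher in the group named first) between same-numbered arrays for each of the 39 genes (vertical, grouped by role) and each replicate number 1 to 4 (horizontal). The PD325901 minus DMSO panel is mostly blue, deepest at numbers 3 and 4. In the mostly red SB590885 minus PD325901 panel, POLE2 and MCM4 lie below 0 at every number, MCM4 only just at numbers 2 and 4. CDC6 and CDC25A lie below 0 there at numbers 1 to 3. The SB590885 minus DMSO panel is mixed, with RRM2 red and POLE2 blue at every number.

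Licensing genes, which place the helicase on origins, numbered 10. MCM6, a subunit of the ring-shaped MCM helicase, had log2 values of 12.63, 12.66, 12.19 and 12.44 with SB590885, 12.47, 12.20, 11.88 and 12.02 with PD325901, and 12.56, 12.46, 12.38 and 12.41 with DMSO. With PD325901 arrays 2 to 4 lay below all DMSO arrays and array 1 lay among them, and the SB590885 arrays spanned the DMSO range. MCM6 fell by 0.31 ± 0.064 with PD325901 against DMSO (limma adjusted p = 0.00828 with the block and 0.615 without) and was 0.34 ± 0.064 higher with SB590885 than with PD325901 (limma adjusted p = 0.00187 with the block). MCM3, another subunit of the ring, had values of 11.60, 11.56, 10.89 and 11.16 with SB590885, 11.32, 11.17, 10.57 and 10.76 with PD325901, and 11.42, 11.41, 11.04 and 11.06 with DMSO. All 3 groups overlapped, with the R-marked arrays lowest in each, and within every number PD325901 was below both other groups. MCM3 fell by 0.28 ± 0.057 with PD325901 against DMSO (limma adjusted p = 0.00776 with the block and 0.953 without) and was 0.34 ± 0.057 higher with SB590885 than with PD325901 (limma adjusted p = 0.000669 with the block).

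MCM4, also a subunit of the ring, fell with each inhibitor. Its values were 11.01, 10.95, 10.60 and 10.74 with SB590885, 11.18, 10.96, 10.81 and 10.75 with PD325901, and 11.24, 11.23, 11.12 and 11.06 with DMSO. All 4 SB590885 arrays lay below all 4 DMSO arrays, and PD325901 overlapped both groups, with 1 array inside the DMSO range. MCM4 fell by 0.34 ± 0.055 with SB590885 (limma adjusted p = 0.000562 with the block and 0.131 without) and by 0.24 ± 0.055 with PD325901 (limma adjusted p = 0.0150 with the block and 0.716 without), and the difference between the inhibitors, -0.10, did not pass. Of its 5 probe sets, 4 had differences between -0.40 and -0.33 with SB590885 and the remaining one was 0.10 higher. MCM5 had values of 11.05, 11.15, 10.81 and 11.03 with SB590885, 10.90, 10.79, 10.62 and 10.71 with PD325901, and 10.92, 10.94, 10.92 and 10.85 with DMSO. SB590885 arrays 1, 2 and 4 lay above all PD325901 arrays. MCM5 was 0.26 ± 0.056 higher with SB590885 than with PD325901 (limma adjusted p = 0.00451 with the block and 0.110 without), and it passed against DMSO for neither inhibitor. MCM2 and MCM7 complete the ring. MCM2 had values of 11.34, 11.42, 11.35 and 11.50 with SB590885, 11.35, 11.28, 11.17 and 11.20 with PD325901, and 11.44, 11.38, 11.41 and 11.39 with DMSO. MCM7 had values of 11.55, 11.59, 11.38 and 11.64 with SB590885, 11.44, 11.32, 11.21 and 11.40 with PD325901, and 11.46, 11.46, 11.44 and 11.52 with DMSO. In both, all PD325901 arrays lay below all DMSO arrays, for MCM7 by a margin lost in rounding. Neither difference from DMSO passed by the chosen probe set. MCM2 was -0.16 ± 0.051 (limma adjusted p = 0.0783) and MCM7 -0.13 ± 0.047 (limma adjusted p = 0.113), both with the block. The second MCM7 probe set, with a mean of 11.3, passed as lower with PD325901 (-0.16, limma adjusted p = 0.0402 with the block, over all probe sets). Both genes were higher with SB590885 than with PD325901, by 0.16 and 0.20. Members whose groups did not overlap numbered 5 for PD325901 against DMSO (MCM2, MCM7, ORC1, CHAF1A and CDC25A), all lower, against 2.68% of all genes lower and 1.4% higher.

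Of the loading factors, CDT1 fell with each inhibitor by its brighter probe set alone. CDT1, which brings MCM to the origin, had values of 10.39, 10.15, 10.11 and 10.15 with SB590885, 10.40, 10.24, 10.08 and 10.03 with PD325901, and 10.61, 10.49, 10.27 and 10.21 with DMSO. Each inhibitor was below DMSO at every number, though the ranges overlapped. CDT1 fell by 0.19 ± 0.048 with SB590885 (limma adjusted p = 0.0113 with the block and 0.511 without) and by 0.21 ± 0.048 with PD325901 (limma adjusted p = 0.0160 with the block and 0.819 without), but its other probe set passed in the opposite direction with SB590885, 0.17 higher than DMSO and 0.31 higher than PD325901 (limma adjusted p = 0.0104 and 0.000176 with the block, over all probe sets), and was -0.13 with PD325901 against DMSO, which did not pass. CDC6, the ATPase that works with the origin complex, passed in none of the 3 comparisons, with 0.01 for SB590885 and 0.08 for PD325901 against DMSO, but its other probe set was lower with SB590885 than with PD325901 (-0.16, limma adjusted p = 0.0257 with the block, over all probe sets). ORC1, the ATPase of the origin recognition complex, had values of 9.11, 9.14, 9.49 and 9.50 with SB590885, 9.03, 9.05, 9.11 and 8.92 with PD325901, and 9.13, 9.18, 9.19 and 9.19 with DMSO. The SB590885 arrays with the R mark were the highest of the 12, and PD325901 lay below all DMSO arrays. ORC1 was 0.28 ± 0.072 higher with SB590885 than with PD325901 (limma adjusted p = 0.0136 with the block) and passed against DMSO for neither inhibitor. ORC6, a small subunit of the same complex, was 0.23 ± 0.046 higher with SB590885 than with PD325901 (limma adjusted p = 0.00257 with the block), with -0.16 for PD325901 against DMSO (limma adjusted p = 0.0501 with the block).

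Genes for helicase activation, 6 in number, all had lower means with each inhibitor than with DMSO by their chosen probe sets on the deposited scale. After quantile normalisation 4 of 6 lay below DMSO with SB590885, and GINS2 (0.05) and GINS4 (0.02) lay above it. A dimmer probe set each of GINS2 (0.15) and GINS4 (0.18) passed as higher with SB590885 than with DMSO (limma adjusted p = 0.0245 and 0.0280 with the block, over all probe sets). The other probe sets of MCM10 and GINS3 were lower with SB590885. MCM10, which is needed for the loaded helicase to start, had values of 11.15, 11.07, 10.56 and 10.79 with SB590885, 11.17, 11.10, 10.60 and 10.53 with PD325901, and 11.30, 11.22, 10.96 and 10.82 with DMSO. It was below DMSO at every number with each inhibitor, and the spread between R-marked and unmarked arrays was wider than this difference. MCM10 fell by 0.18 ± 0.060 with SB590885 (limma adjusted p = 0.0447 with the block and 0.832 without) and by 0.22 ± 0.060 with PD325901 (limma adjusted p = 0.0327 with the block and 0.979 without). CDC45, which joins MCM and GINS in the active helicase, had values of 10.28, 10.27, 10.08 and 10.34 with SB590885, 10.37, 10.25, 10.09 and 10.14 with PD325901, and 10.38, 10.49, 10.35 and 10.37 with DMSO. SB590885 lay below all DMSO arrays and PD325901 did so on 3 of 4 arrays, but neither fall passed (SB590885 -0.15, limma adjusted p = 0.0649, and PD325901 -0.18, limma adjusted p = 0.0534, both with the block).

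Of the GINS subunits, GINS1, GINS2 and GINS3 fell with PD325901 with the block. GINS2 had values of 11.51, 11.44, 11.03 and 11.18 with SB590885, 11.35, 11.11, 10.93 and 10.83 with PD325901, and 11.46, 11.33, 11.27 and 11.26 with DMSO. PD325901 arrays 2 to 4 were below all DMSO arrays, and the fall was -0.27 ± 0.060 (limma adjusted p = 0.0117 with the block and 0.726 without). Of its other probe sets, 1 passed as higher with PD325901 (0.16, limma adjusted p = 0.0360 with the block, over all probe sets). GINS1 was -0.20 ± 0.055 and GINS3 -0.21 ± 0.051 with PD325901 (limma adjusted p = 0.0351 and 0.0193 with the block). GINS4 had values of 9.43, 9.50, 9.43 and 9.59 with SB590885, 9.43, 9.33, 9.20 and 9.28 with PD325901, and 9.41, 9.45, 9.55 and 9.58 with DMSO. Every SB590885 array lay above every PD325901 array by a margin lost in rounding at its narrowest, yet the difference of 0.17 ± 0.057 missed the threshold (limma adjusted p = 0.0501 with the block). A dimmer GINS4 probe set passed in the same direction (0.21, limma adjusted p = 0.0138 with the block, over all probe sets), and the others did not pass. Members whose groups did not overlap between the inhibitors numbered 3, GINS4, RRM2 and TK1, all higher with SB590885, against 4.68% of all genes higher and 2.5% lower.

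At the fork itself, PCNA, the sliding clamp that holds polymerases on DNA, had values of 13.08, 13.08, 12.56 and 12.61 with SB590885, 12.80, 12.70, 12.31 and 12.22 with PD325901, and 12.98, 12.88, 12.58 and 12.51 with DMSO. At each number PD325901 was the lowest of the groups, while the ranges overlapped because the R-marked arrays of every group were lower. PCNA fell by 0.23 ± 0.046 with PD325901 (limma adjusted p = 0.00611 with the block and 0.967 without) and was 0.33 ± 0.046 higher with SB590885 than with PD325901 (limma adjusted p = 0.000168 with the block and 0.483 without). RFC3, part of the loader that opens this clamp, had values of 10.98, 10.99, 10.72 and 10.82 with SB590885, 11.01, 10.82, 10.34 and 10.41 with PD325901, and 11.16, 11.09, 10.84 and 10.90 with DMSO. PD325901 arrays with the R mark were the lowest of the 12. RFC3 fell by 0.35 ± 0.064 with PD325901 (limma adjusted p = 0.00390 with the block and 0.592 without). For PD325901 against DMSO, it was the 1 member to pass without the block after quantile normalisation. RFC4, another loader subunit, passed in no comparison, nor did the flap nuclease FEN1 or POLA1, the catalytic subunit of the polymerase that starts each strand, and their differences lay between -0.12 and 0.05 over the 3 comparisons.

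POLE2, an accessory subunit of the leading-strand polymerase, had the deepest fall of all members with SB590885. Its values were 10.39, 10.27, 10.04 and 10.20 with SB590885, 10.93, 10.55, 10.32 and 10.36 with PD325901, and 10.99, 10.89, 10.57 and 10.52 with DMSO. All SB590885 arrays lay below all DMSO arrays, and PD325901 lay between the groups at every number. POLE2 fell by 0.52 ± 0.060 with SB590885 (limma adjusted p = 4.75e-05 with the block and 0.0804 without) and was -0.32 ± 0.060 against PD325901 (limma adjusted p = 0.00168 with the block), the reverse of PCNA and RFC3. With PD325901 against DMSO the difference of -0.20 did not pass (limma adjusted p = 0.0532 with the block). PRIM1, the catalytic primase subunit, had values of 11.40, 11.24, 11.20 and 11.23 with SB590885, 11.21, 11.10, 10.90 and 10.83 with PD325901, and 11.21, 11.25, 11.18 and 11.04 with DMSO. PD325901 arrays 3 and 4 were the lowest, and PRIM1 was 0.26 ± 0.053 higher with SB590885 than with PD325901 (limma adjusted p = 0.00331 with the block and 0.156 without).

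**Figure D3:**
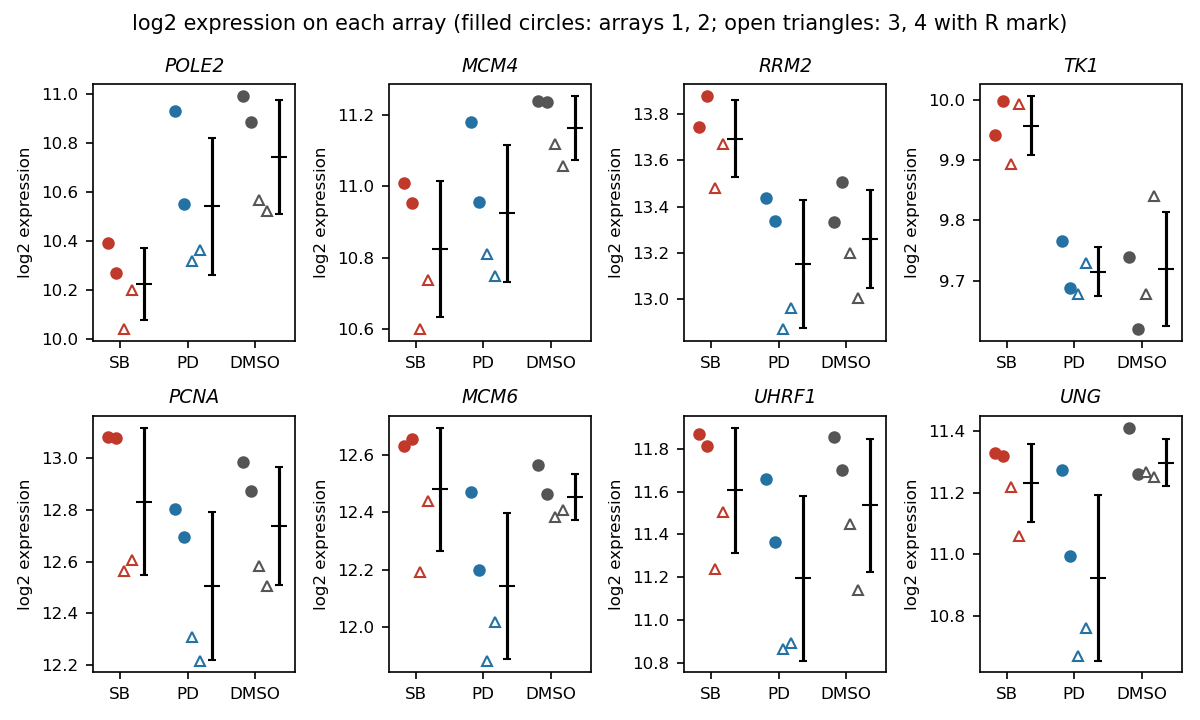
Log2 expression (vertical axes, which differ between panels and do not start at 0) of 8 genes on each array, with SB590885 (SB) left, PD325901 (PD) in the middle and DMSO right; filled circles are arrays 1 and 2, open triangles arrays 3 and 4 with the R mark, and bars the mean ± SD (n = 4). POLE2 and MCM4 lie lowest with SB590885, RRM2 and TK1 highest with SB590885, and PCNA, MCM6, UHRF1 and UNG lowest with PD325901.

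Of the nucleotide supply genes, RRM2 and TK1 rose with SB590885. RRM2, the regulated subunit of ribonucleotide reductase, which makes deoxyribonucleotides, had values of 13.75, 13.88, 13.48 and 13.67 with SB590885, 13.44, 13.34, 12.87 and 12.96 with PD325901, and 13.33, 13.51, 13.20 and 13.01 with DMSO. SB590885 lay above every PD325901 array and above all DMSO arrays except that its R-marked array 3 was just below DMSO array 2. RRM2 rose by 0.43 ± 0.068 against DMSO, a fold of 1.35 (limma adjusted p = 0.000491 with the block and 0.149 without), and was 0.54 ± 0.068 higher than with PD325901, the widest gap between the inhibitors among the members (limma adjusted p = 7.51e-05 with the block and 0.0717 without). Its second probe set was 0.10 higher than DMSO, which did not pass, and 0.26 higher than PD325901, which passed with the block (limma adjusted p = 0.00408 over all probe sets).

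TK1, the thymidine salvage kinase of dividing cells, had values of 9.94, 9.998, 9.89 and 9.99 with SB590885, 9.77, 9.69, 9.68 and 9.73 with PD325901, and 9.74, 9.62, 9.68 and 9.84 with DMSO. All SB590885 arrays lay above all arrays of the other groups, which overlapped one another, and TK1 did not follow the R mark. TK1 rose by 0.24 ± 0.046 against DMSO, a fold of 1.18 (limma adjusted p = 0.0316 without and 0.00222 with the block), and was 0.24 ± 0.046 higher than with PD325901 (limma adjusted p = 0.0307 without and 0.00194 with the block). In the fit without the block, the call against DMSO was lost on leaving out any 1 of 6 of the 12 arrays (SB590885 1, 2 and 4 and DMSO 1, 2 and 3; adjusted p 0.0228 to 0.101 over the 12 left-out fits), and the difference kept between 0.20 and 0.28. The call against DMSO was also lost without the block after quantile normalisation (limma adjusted p = 0.210). The second TK1 probe set was 0.10 higher than DMSO, which did not pass (limma adjusted p = 0.320 with the block, over all probe sets), and 0.18 higher than PD325901, which passed with the block (limma adjusted p = 0.0439 over all probe sets). In the fit without the block, the call between the inhibitors was lost on leaving out SB590885 array 1, 2 or 4 or PD325901 array 2, 3 or 4. TYMS, which makes thymidylate, was 0.16 ± 0.051 higher with SB590885 than with PD325901 (limma adjusted p = 0.0428 with the block). Its difference of -0.14 with PD325901 against DMSO did not pass (limma adjusted p = 0.110 with the block). A dimmer TYMS probe set passed as lower there (-0.25, limma adjusted p = 0.0255 with the block, over all probe sets), and another (-0.06) did not. RRM1, the large reductase subunit, did not pass in any of the 3 comparisons by its chosen probe set. It was -0.07 for SB590885 and -0.07 for PD325901 against DMSO. The other RRM1 probe set was lower with SB590885 than with DMSO (-0.23, limma adjusted p = 0.0453 with the block, over all probe sets).

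All 4 chromatin and histone supply genes were higher with SB590885 than with PD325901. UHRF1, which reads newly copied DNA for maintenance methylation, had values of 11.87, 11.81, 11.24 and 11.50 with SB590885, 11.66, 11.36, 10.87 and 10.89 with PD325901, and 11.86, 11.70, 11.45 and 11.14 with DMSO. The arrays with the R mark were the lower ones in each group, and at each number PD325901 was lowest. UHRF1 fell by 0.34 ± 0.075 with PD325901 (limma adjusted p = 0.0116 with the block and 0.923 without), and the gap between the inhibitors was 0.41 ± 0.075 (limma adjusted p = 0.00127 with the block). SLBP, which binds the end of histone messages, had values of 12.69, 12.74, 12.24 and 12.46 with SB590885, 12.59, 12.51, 12.002 and 12.01 with PD325901, and 12.73, 12.68, 12.42 and 12.44 with DMSO. PD325901 arrays with the R mark were the lowest of the 12, and SLBP fell by 0.29 ± 0.059 with PD325901 (limma adjusted p = 0.00752 with the block and 0.844 without).

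CHAF1A and CHAF1B are subunits of the factor that lays histones on new DNA. CHAF1A had values of 10.67, 10.75, 10.50 and 10.68 with SB590885, 10.59, 10.46, 10.34 and 10.30 with PD325901, and 10.60, 10.68, 10.63 and 10.66 with DMSO. PD325901 lay below all DMSO arrays, and CHAF1A fell by 0.22 ± 0.058 (limma adjusted p = 0.0305 with the block and 0.339 without). Of its 4 probe sets 3 were lower with PD325901 and the remaining one, whose mean was below the median of all probe sets, was 0.03 higher. CHAF1B had values of 8.41, 8.35, 7.91 and 8.15 with SB590885, 8.19, 7.99, 7.68 and 7.73 with PD325901, and 8.26, 8.20, 7.90 and 7.89 with DMSO. SB590885 was the highest group at every number, and the gap to PD325901 was 0.30 ± 0.049 (limma adjusted p = 0.000487 with the block), while the difference from DMSO of 0.15 for SB590885 and -0.16 for PD325901 did not pass.

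Among the repair and checkpoint genes, UNG, which cuts uracil out of DNA, fell the most of all members with PD325901. Its values were 11.33, 11.32, 11.22 and 11.06 with SB590885, 11.27, 10.99, 10.67 and 10.76 with PD325901, and 11.41, 11.26, 11.27 and 11.25 with DMSO. PD325901 arrays 2 to 4 were below all DMSO arrays, and array 1 was inside their range. UNG fell by 0.37 ± 0.070 with PD325901, a fold of 0.77 (limma adjusted p = 0.00449 with the block and 0.305 without), with -0.14, -0.27, -0.60 and -0.49 in pairs 1 to 4. EXO1, a nuclease of mismatch repair, fell by 0.21 ± 0.057 with PD325901 (limma adjusted p = 0.0352 with the block). DTL, the ligase adaptor that has CDT1 destroyed in S phase, was 0.17 ± 0.050 higher with SB590885 than with PD325901 (limma adjusted p = 0.0275 with the block), and CLSPN, the adaptor for the checkpoint kinase, passed in no comparison by its chosen probe set, with -0.16 for PD325901 against DMSO (limma adjusted p = 0.0727 with the block), while a dimmer one was 0.21 higher with SB590885 than with DMSO (limma adjusted p = 0.00667 with the block, over all probe sets).

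The G1-S regulators did not move as one. CDC25A, the phosphatase that frees cyclin-dependent kinase to start S phase, had values of 10.06, 10.06, 9.96 and 10.11 with SB590885, 10.18, 10.19, 10.08 and 10.05 with PD325901, and 10.25, 10.28, 10.28 and 10.22 with DMSO. All arrays of each inhibitor lay below all DMSO arrays. CDC25A fell by 0.21 ± 0.047 with SB590885 (limma adjusted p = 0.0407 without and 0.00598 with the block), and the difference of -0.13 ± 0.047 with PD325901 did not pass (limma adjusted p = 0.106 with the block). A dimmer probe set passed as lower with PD325901 (-0.27, limma adjusted p = 0.0181 with the block, over all probe sets), and another (-0.11) did not. In the fit without the block the CDC25A call for SB590885 was lost on leaving out SB590885 array 1, 2 or 3 or any DMSO array (adjusted p 0.0418 to 0.109 over the 12 left-out fits). The same call was also lost without the block after quantile normalisation (limma adjusted p = 0.49). SB590885 and DMSO groups did not overlap for TK1, which lay above, and for MCM4, CDC45, POLE2 and CDC25A, which lay below, against 4.45% of all genes above and 5.76% below.

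E2F8, a repressor of E2F targets late in S phase, had values of 10.99, 10.91, 10.20 and 10.39 with SB590885, 10.93, 10.81, 10.34 and 10.14 with PD325901, and 11.13, 11.01, 10.58 and 10.65 with DMSO. It was below DMSO at every number with each inhibitor, and the R-marked arrays of each group lay lower than the unmarked ones by more than this. E2F8 fell by 0.22 ± 0.061 with SB590885 (limma adjusted p = 0.0214 with the block and 0.847 without) and by 0.29 ± 0.061 with PD325901 (limma adjusted p = 0.00964 with the block and 0.978 without). E2F2, an activator, had values of 10.62, 10.51, 10.43 and 10.64 with SB590885, 10.58, 10.41, 10.23 and 10.29 with PD325901, and 10.37, 10.43, 10.32 and 10.39 with DMSO. It was 0.17 ± 0.057 higher with SB590885 than with PD325901 (limma adjusted p = 0.0481 with the block), but another of its probe sets passed as lower (-0.18, limma adjusted p = 0.0237 with the block, over all probe sets), and the difference of 0.17 from DMSO with SB590885 did not pass (limma adjusted p = 0.0502 with the block). E2F1, the activator that drives many of these genes, passed in no comparison, at 0.10 for SB590885 and -0.02 for PD325901 against DMSO.

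**Figure D4:**
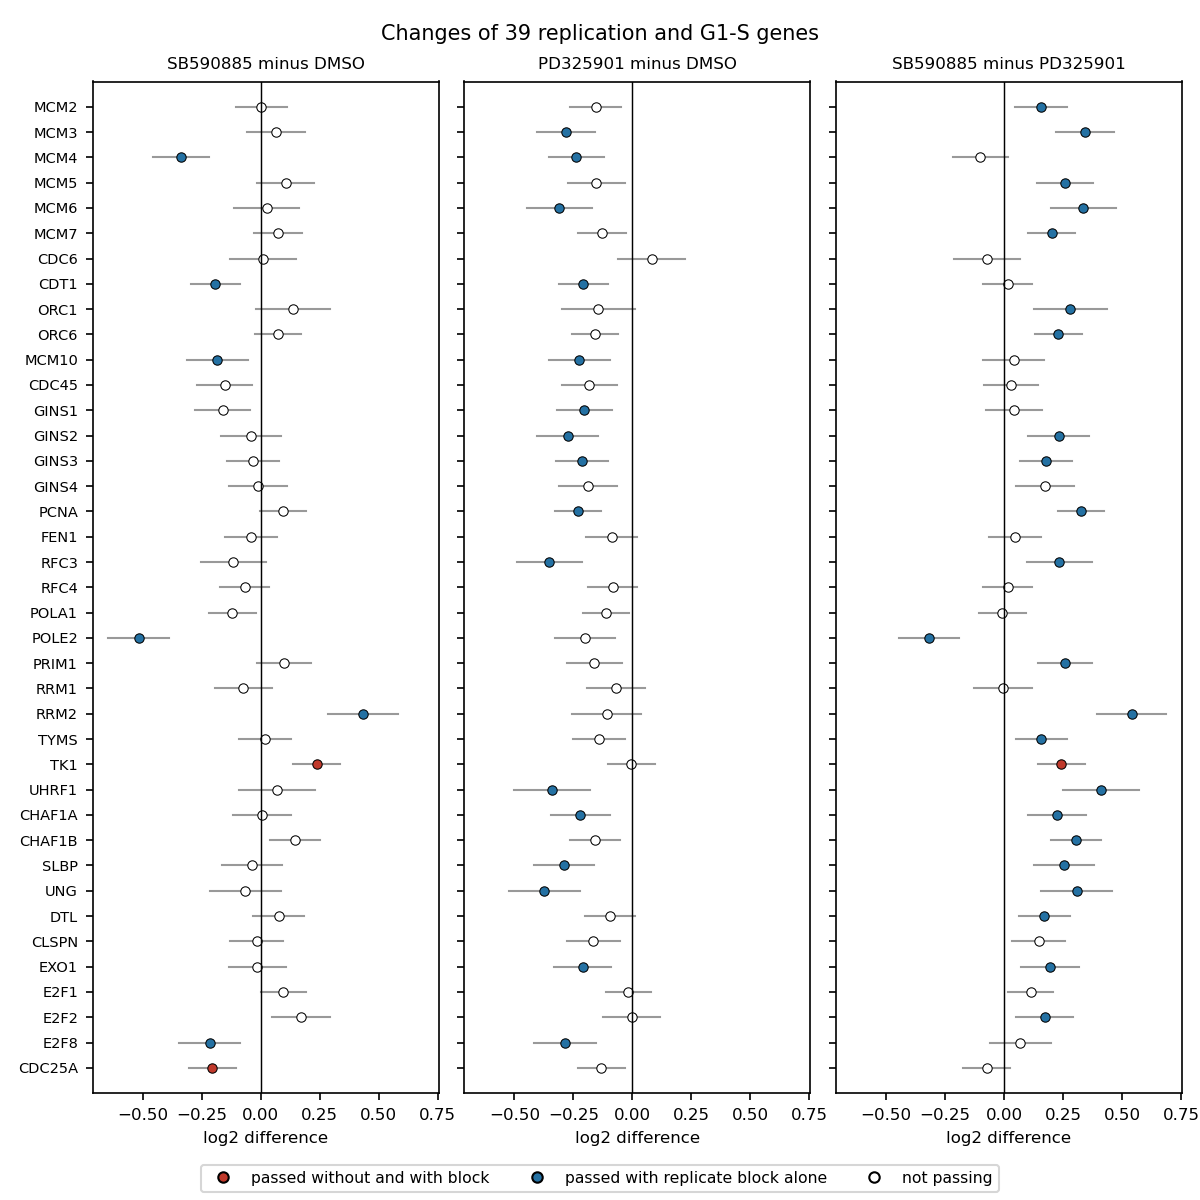
Log2 difference (horizontal) of each of the 39 genes in the 3 comparisons; points are differences of group means over 4 arrays each and lines their 95% interval in the limma fit with the replicate block, red where the gene passed without and with the block, blue with the block alone, white where it did not pass. With PD325901 against DMSO 38 of 39 points lie left of 0, and between the inhibitors 33 of 39 lie right of 0, with POLE2 the exception that passed.

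The members were split more widely between arrays with and without the R mark than between the groups. With the mark, 28 members were lower and 1, E2F1, was higher in limma with group as a term, against 32.1% of all genes lower and 23.4% higher. Of the 3067 genes with a mean of 10 or more, 2465 were lower and 27 higher in that fit. The median of members was -0.24, and that of genes with a mean of 10 or more was -0.28. E2F8 (-0.58), UHRF1 (-0.53), MCM3 (-0.50), DTL (-0.46) and MCM10 (-0.46) had the widest such differences among the members, each wider than its differences in the 3 group comparisons. After quantile normalisation 13 members were higher and 10 lower with the mark. The share over all genes at that scaling was not computed. These counts therefore say only that the direction of the mark's effect on the members rests on the scaling. Whether an inhibitor's effect differed between arrays with and without the mark was tested as an interaction in limma, and 0 members passed for either inhibitor, against 0.00506% of all genes for SB590885 and 0% for PD325901, with 1 and 6 members at an unadjusted p under 0.05. The median interaction over members was -0.08 for SB590885 and -0.15 for PD325901, and that for PD325901 was -0.02 after quantile normalisation.

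Of 63 other replication genes, listed from knowledge of the pathway but with earlier results of these data known, most also had lower means with PD325901. Of these, 60 were measured, and with PD325901 against DMSO 15 fell and 0 rose with the block and 0 passed in limma without it (9 lower and 0 higher at an unadjusted p under 0.05), with a median of -0.13 and 55 of 60 below DMSO. The 15 are 25.0% of the list, against 6.18% of all genes and 15.4% of genes with a mean of 10 or more. After quantile normalisation 9 fell with the block, the median was -0.07 and 45 of 60 lay below DMSO. Among the 15 were MCMBP (-0.30 ± 0.046), which unloads MCM from chromatin, TIPIN (-0.34 ± 0.056), a fork protection protein, the nuclease DNA2 (-0.31 ± 0.052) and the polymerase subunit POLD3 (-0.34 ± 0.057). Between the inhibitors 22 were higher and 1 lower with SB590885 with the block (36.7% and 1.67%, against 12.4% and 5.73% of all genes), and 3 were higher without it: POLE (0.28 ± 0.054), the catalytic partner of POLE2, the replication starter TICRR (0.33 ± 0.075) and the histone chaperone ASF1B (0.44 ± 0.10), the SE here from the fit without the block. SB590885 against DMSO gave 8 higher and 12 lower with the block (13.3% and 20%). The shares were 9.09% and 9.84% of all genes, and 9.78% and 28% of genes with a mean of 10 or more. Without the block 1 was lower, against 1.69% of all genes, the nucleotide-cleaning enzyme DCTPP1 (-0.41 ± 0.067, limma adjusted p = 0.00807).

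Genes that control the G1-S step held changes larger than those of the members with PD325901. Of 26 measured control genes, CCNE1, the cyclin that drives CDK2 into S phase, fell with each inhibitor also without the block. It averaged 9.64 ± 0.096 with SB590885, 9.27 ± 0.21 with PD325901 and 10.17 ± 0.13 with DMSO (SD, n = 4 each), a difference from DMSO of -0.53 for SB590885 (limma adjusted p = 0.0173 without the block) and -0.90 for PD325901 (limma adjusted p = 0.00139 without the block). With the block PD325901 gave 3 higher and 6 lower (11.5% and 23.1%, against 1.96% and 6.18% of all genes), and 6 higher and 4 lower after quantile normalisation, so the balance of directions rests on the scaling. Among the 9 were CDKN1C, an inhibitor of cyclin-dependent kinases (0.79 ± 0.10), E2F3, an activator (-0.44 ± 0.048), and RB1, the retinoblastoma gene (-0.49 ± 0.058). SB590885 gave 5 higher and 7 lower with the block (19.2% and 26.9%, against 9.09% and 9.84% of all genes), among them the repressor E2F7 (0.45 ± 0.055), TFDP1, the partner of E2F factors (-0.33 ± 0.056), and SKP2, which targets the kinase inhibitor CDKN1B (-0.30 ± 0.060). Between the inhibitors E2F7 was 0.59 ± 0.055 higher and E2F5 -0.60 ± 0.078 with SB590885, both with the block.

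Mitosis genes, which peak later in the cycle, fell with PD325901 at a share near that of all genes. Of 34 measured, 3 fell and 0 rose with the block (8.82%, against 6.18% of all genes lower), with a median of -0.08, and 28 of 34 had a lower mean than with DMSO. They were the topoisomerase TOP2A (-0.19 ± 0.047), the kinesin KIF23 (-0.24 ± 0.065) and MKI67 (-0.19 ± 0.052), the proliferation marker Ki-67, and in limma without the block 0 passed, with 2 lower and 0 higher at an unadjusted p under 0.05. After quantile normalisation with the block 1 was higher and 0 were lower, and 15 of 34 lay below DMSO. Between the inhibitors 13 were higher with SB590885 and 1 was lower with the block (38.2% and 2.94%, against 12.4% and 5.73% of all genes), and CDC25C, the mitotic counterpart of CDC25A, averaged 8.94 ± 0.14 with SB590885, 8.498 ± 0.030 with PD325901 and 8.496 ± 0.12 with DMSO (SD, n = 4 each), and passed without the block for SB590885 against DMSO (0.44 ± 0.075, limma adjusted p = 0.00989). CENPF, a kinetochore protein, was 0.31 ± 0.074 higher than DMSO with SB590885 (limma adjusted p = 0.0440 without the block). With the block SB590885 against DMSO gave 7 mitosis genes higher and 4 lower (20.6% and 11.8%, against 9.09% and 9.84% of all genes). DLGAP5 (-0.36 ± 0.055 with the block) was among the 4 that were lower. A difference between the lists was not tested.

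**Figure D5:**
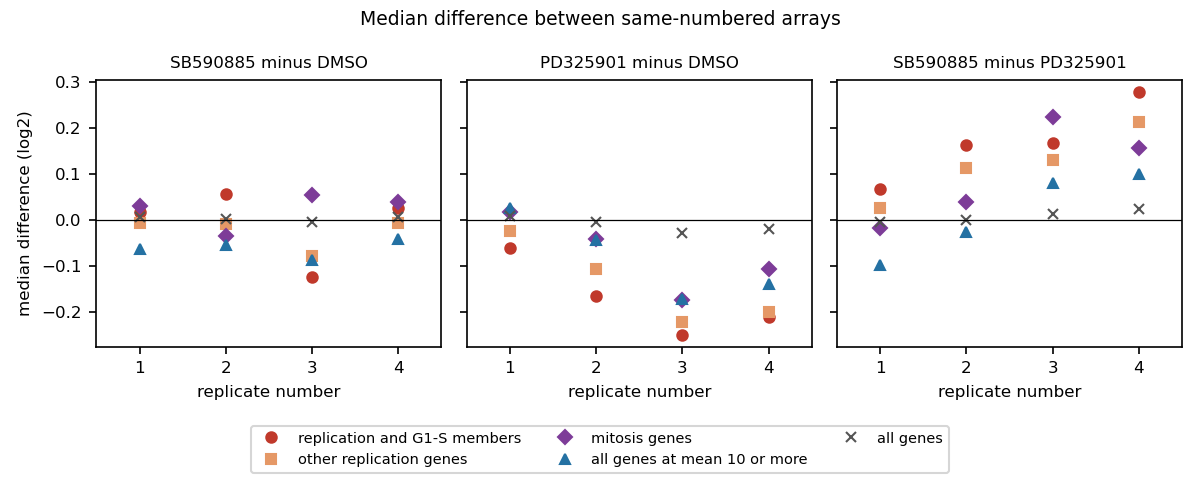
Median difference on the log2 scale (vertical) between same-numbered arrays for each replicate number (horizontal), over the 39 replication and G1-S genes, 60 other replication genes, 34 mitosis genes, the 3067 genes with a mean of 10 or more, and all 19775 genes. With PD325901 against DMSO the members lie at -0.06, -0.17, -0.25 and -0.21 and the genes with a mean of 10 or more at 0.03, -0.04, -0.17 and -0.14; between the inhibitors the members are above 0 at every number.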

How the data were processed

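The authors deposited log2 expression values per probe set, made with RMA in R 3.0.1 per the submitters' processing notes; joint normalisation of all arrays, or any filter, is not stated there. Of 54675 probe sets, 62 controls were left out, and the annotation gave 41091 a lone gene symbol, 1801 more than 1 symbol and 11721 no symbol. Only the first kind was named, 10523 of the 19775 genes had more than 1 probe set, and the 39 members had 76. Array medians and ranges were left as deposited, and the number of arrays limits the precision. Of 18 pairs of arrays of the same group, 0 were identical.

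The groups were fitted in limma 3.58.1 (R 4.3.3) as group means over all 12 arrays sharing 1 estimate of the spread, with empirical Bayes moderation and Benjamini-Hochberg adjustment over 19775 genes. The alternative fit added the replicate number, taken from the labels, as a block. Deviations from group means of same-numbered arrays correlated with r between 0.544 and 0.913 in 12 of 12 pairs over all genes, against 0.123 to 0.646 for arrays of another number with the same R mark and -0.718 to -0.443 across the mark. Over the members the same ranges were 0.604 to 0.819, 0.576 to 0.731 and -0.767 to -0.538. The ranges for the same number and for another number with the same mark overlap in both cases. Pairing by number, rather than by the mark alone, is thus an assumption of the fit with the block, and the labels name no block. Intervals are 95%. The fitting was tested on simulated data.

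The members and the gene lists were chosen with earlier results of these data known. Some genes of the other lists are not reported here. Named genes were the members with the smallest p in each comparison, up to 8 per fit, the rest being given by counts, and up to 4 passing genes of each other list. Alternatives covered the R mark, array centring, quantile normalisation, a filter on low genes, the choice of probe set, the groups in the fit, an intensity trend and leaving out arrays.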

Additional observations from a re-analysis of the deposited data

Results flagged for a closer look

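Of the 117 combinations of a member and a group of 4 arrays, 4 held an array that stood apart from the other arrays of its group, its gap to the nearest exceeding Dixon's 95% critical value; chance alone gives such an array in about 5% of groups. CDT1 was high on SB590885 array 1 (10.39), next to 10.155 on array 4, and E2F1 was high on SB590885 array 4 (8.985), next to 8.73 on array 3. UNG was high on DMSO array 1 (11.41), next to 11.27 on array 3, and ORC1 was low on DMSO array 1 (9.135), next to 9.18 on array 2.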

How the results depend on the processing

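Counts of members that passed depended on whether the fit held a term for the replicate number or for the R mark. Against DMSO, SB590885 gave 2 members without the replicate block, and 8 with it, 9 with an R mark term, 4 on unmarked and 4 on marked arrays alone, 0 with arrays centred, with only the 2 groups compared or with an intensity trend, and 1 with low genes left out or probe sets averaged. PD325901 gave 0 without the block, 16 with it, 15 with an R mark term, 14 on marked arrays alone and 1 after quantile normalisation. Between the inhibitors 1 member passed without the block, 24 with it, 21 with an R mark term, 7 on unmarked and 14 on marked arrays alone, 11 after quantile normalisation, 2 with probe sets lacking _x_at, _s_at and _a_at, and 0 with arrays centred, with only the 2 groups compared or with an intensity trend. Leaving out 1 array gave 0 to 3, 0 to 1 and 0 to 4 members in the 3 comparisons without the block (for SB590885 against DMSO 0 without SB590885 array 1 or 2 or DMSO array 1, 2 or 3 and 1 without SB590885 array 3 or 4 or DMSO array 4, for PD325901 1 without PD325901 array 1, and between the inhibitors 0 without SB590885 array 1, 2 or 4 or PD325901 array 2, 3 or 4, 3 without SB590885 array 3 and 4 without PD325901 array 1), and 6 to 11, 5 to 22 and 14 to 25 with it. With the block, SB590885 against DMSO gave 5 members on marked arrays alone and 5 without the arrays numbered 1. PD325901 gave 0 on unmarked arrays alone, 7 after quantile normalisation, and 10, 6 and 3 without the arrays numbered 2, 3 and 4. It gave 10 without DMSO array 2, 7 without DMSO array 3, 8 without DMSO array 4, 8 without PD325901 array 3 and 5 without PD325901 array 4. Between the inhibitors 13 passed on unmarked arrays alone, 15 without the arrays numbered 2, 13 without those numbered 4 and 14 without PD325901 array 4. The fits on 6 arrays hold 2 per group, so fewer calls can come from fewer arrays; for the other changes the cause was not tested.

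Over all genes, SB590885 against DMSO gave 649 calls, and 3742 with the replicate block, 3331 with an R mark term, 2637 on unmarked and 1066 on marked arrays alone, 381 with arrays centred (142 higher, 239 lower, against 315 and 334), 1632 after quantile normalisation, 432 with an intensity trend and 245 to 691 without 1 array (288 and 260 without SB590885 arrays 1 and 2, and 245, 335, 387 and 393 without DMSO arrays 1 to 4). PD325901 gave 117 calls (17 higher, 100 lower), and 1610 with the block, 1289 with an R mark term, 186 and 1079 on unmarked and marked arrays alone, 351 after quantile normalisation (175 higher, 176 lower) and 72 (DMSO array 2) to 126 without 1 array. SB590885 against PD325901 gave 558 (389 higher, 169 lower), and 3582 with the block, 3187 with an R mark term, 2358 and 1770 on unmarked and marked arrays alone, 307 with arrays centred, 1556 after quantile normalisation (877 higher, 679 lower), 225 with only the 2 groups compared and 281 to 509 without 1 array (305 and 281 without SB590885 arrays 1 and 2, and 370 without PD325901 array 4). Direction reversed for 2 members, where dropping _x_at, _s_at and _a_at probe sets leaves another probe set: GINS2 was 0.164 with PD325901 against DMSO and -0.0104 between the inhibitors, and CHAF1A was 0.0285 and -0.0601. The block changed no call of a member other than those given with the results. Of the recomputed changes of named members, 904 kept their direction and side of the threshold, 148 passed where they had not, 38 no longer passed and these 4 reversed.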
